A study of Homo sapiens with 24 samples.

Results

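The UGT2 cluster holds 10 protein-coding genes on the long arm of chromosome 4, at 4q13. They are UGT2B17, UGT2B15, UGT2B10, UGT2A3, UGT2B7, UGT2B11, UGT2B28, UGT2B4, UGT2A1 and UGT2A2, in order of position. The members were taken by name from 19866 protein-coding genes with a RefSeq span on the primary chromosomes of hg38, and the stretch from 2 kb before the first to 2 kb after the last runs over 1120 kb (chromosome 4, 68535173 to 69655247). The genes and the stretch were selected on their covered length in the 14 peak lists, in both contrasts. Differences between groups in the cluster are therefore given as a description and were not tested.

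H4K20me3 (histone H4 with 3 methyl groups on lysine 20) was mapped by CUT&RUN, in which a nuclease tethered to an antibody frees the DNA around marked nucleosomes for sequencing. The cells were HN-SCC-151, an HPV-negative squamous carcinoma line of the head and neck with a wild-type genotype in its labels, and a single line stands for the tumour type. The 4 groups were cells given A-196 at 2.5 µM, an inhibitor of the H4K20 methyltransferases SUV420H1 and SUV420H2 (3 libraries), cells given its vehicle DMSO (3 libraries), cells transfected with siRNAs against SUV420H1 (siSUV420H1, 4 libraries) and cells transfected with control siRNAs (siNC, 4 libraries). Treatment lasted 6 days in each group and 500000 cells went into each reaction. The series names 3 dishes per condition, so some of the 4 siRNA libraries of a group may share a dish. Each library had 1 list of broad peaks without read counts or scores, so its depth is unknown, and weaker signal outside the peaks cannot be seen. The A-196 libraries were called against the IgG library of the DMSO cells, and both siRNA groups against a second one.

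UDP-glucuronosyltransferases sit in the membrane of the endoplasmic reticulum and join glucuronic acid to small lipophilic molecules, which makes these soluble enough to leave in bile and urine. The UGT2B enzymes are best known from liver and intestine, where they act on steroid hormones, bile acids and drugs, and UGT2A1 was first described in olfactory epithelium. The genes arose by duplication and lie side by side with several pseudogene copies, so short reads can be hard to assign to one copy. H4K20me3 is a mark of compact, silent chromatin that is laid down at repeats and at arrays of related genes, mainly by SUV420H2 and also by SUV420H1.

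Peaks numbered 8505 to 13464 with A-196 and 8430 to 8921 with DMSO, and covered 79.6 to 107 Mb and 145 to 153 Mb of the genome. Peaks numbered 9325 to 10203 with siSUV420H1 and 13818 to 14675 with siNC, and covered 118 to 130 Mb and 183 to 193 Mb. A-196 replicate 2 stood apart from the other A-196 libraries, with the most peaks and 3684 genes under a peak against 2138 and 2308. Levels of SUV420H1 itself, which would check the knockdown, and transcript levels of the UGT2 genes were not analysed here. Of 10 squamous epithelial genes fixed as markers of the line, 4 carried a peak in any library, and TP63, the regulator of squamous identity, had 78.6 kb ± 28 with A-196 and 222 kb ± 16.6 with DMSO (SD, n = 3 each). Peaks of a silent-chromatin mark do not check a cell type.

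In the controls the mark lay over the first part of the cluster, from UGT2B17 to UGT2B7, and was nearly absent from the second, and in the treated cells most of it was gone. With A-196, peaks covered 31, 25 and 49 kb of the stretch, against 207, 194 and 182 kb with DMSO. With siSUV420H1 they covered 60, 63, 56 and 56 kb, against 193, 206, 201 and 212 kb with siNC. The treated and control libraries of an arm did not overlap. The means were 35 kb ± 12.5 with A-196 and 194 kb ± 12.5 with DMSO (SD, n = 3 each), a difference of -159 kb. They were 58.8 kb ± 3.40 with siSUV420H1 and 203 kb ± 8.04 with siNC (SD, n = 4 each), a difference of -144 kb. A-196 cells thus had 18% of the DMSO length and siSUV420H1 cells 28.9% of the siNC length. Without A-196 replicate 2, the library that stood apart, the difference in that arm was -154 kb. After scaling each library to its arm's mean covered length, the siRNA difference was -95.3 kb. Fewer cells with the mark and less of it per cell cannot be told apart in these bulk libraries.

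**Figure D1:**
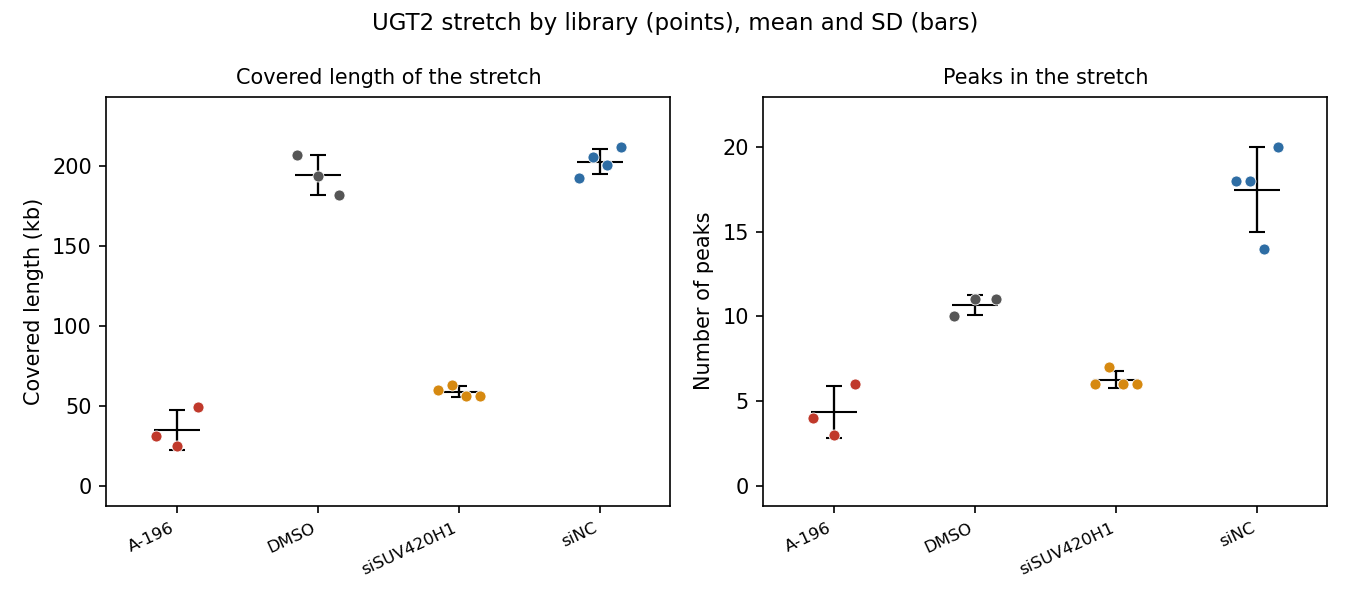
Covered length of the UGT2 stretch in kb (left) and number of peaks in it (right), 1 point per library, with the mean and SD of each group as bars. The A-196 libraries sit between 25 and 49 kb, below the DMSO libraries at 182 to 207 kb, and the siSUV420H1 libraries between 56 and 63 kb, below the siNC libraries at 193 to 212 kb.

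The number of peaks in the stretch was 3 to 6 with A-196 and 10 or 11 with DMSO, and 6 or 7 with siSUV420H1 against 14 to 20 with siNC. The control groups overlapped in covered length and differed in how it was split into peaks. In siNC cells the widest peak of the stretch measured 24, 44, 45 and 24 kb, whereas in DMSO cells it measured 87, 60 and 41 kb. They covered 203 kb and 194 kb of it on average, a difference of 8.67 kb, which turned to -26.6 kb when peaks under 10 kb were left out. UGT2B17 was the member that separated the control groups, with 13 to 22 kb in siNC libraries and 26 to 31.3 kb in DMSO libraries. The siNC and DMSO cells differed in transfection, vehicle and the IgG library used for calling, and these cannot be told apart. The widest peak of the stretch in any treated library measured 12 kb.

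**Figure D2:**
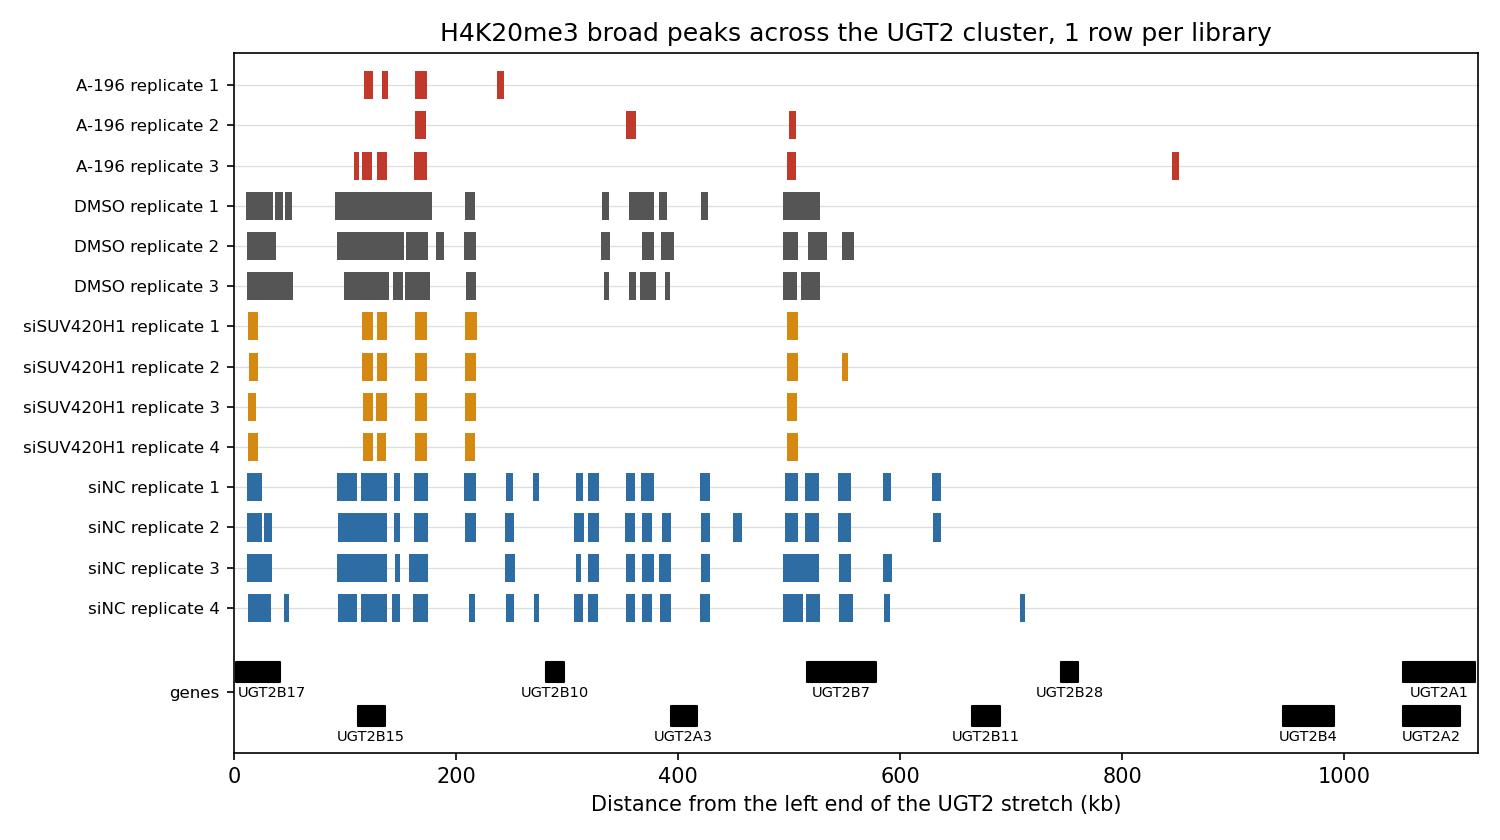
Broad peaks of each library across the UGT2 stretch, with the distance from its left end in kb on the x axis, 1 row per library coloured by group, and the gene spans in black at the bottom. Most control peaks lie between UGT2B17 and UGT2B7, only a few short ones are left in the A-196 and siSUV420H1 rows, and the right part of the map is almost empty in all 14 rows.

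The block from the left end of the stretch to the end of UGT2B7 is 578 kb long. Peaks covered 33 kb of it with A-196 and 194 kb with DMSO, and 58.8 kb with siSUV420H1 and 193 kb with siNC (means). The rest of the stretch, 542 kb with UGT2B11, UGT2B28, UGT2B4, UGT2A1 and UGT2A2, held 2 kb on average with A-196 and 0 with DMSO, and 0 with siSUV420H1 and 10 kb with siNC. UGT2B7 was thus the last gene with a peak in either kind of control, although siNC cells had some short peaks in the space beyond it. The last siNC peak ended at 69172000, 69172000, 69128000 or 69248000, and the last DMSO peak at 69063000, 69094000 or 69063000.

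A gene counted as marked when 200 bp or more of its span, taken with 2 kb to either side, lay under peaks of the library. It counted as lost in an arm when it was marked in all control libraries but in none of the treated ones, and as gained in the opposite case. Of the 10 genes, 4 had a peak in any library, namely UGT2B17 in 11 of 14, UGT2B15 in 13, UGT2B7 in 8 and UGT2A3 in 5. Single libraries had 10.8% to 18.5% of all coding genes marked, and the share marked in any of the 14 is not given here. Nothing is therefore read from counts of genes with a peak in any library, for the members or for other lists. UGT2B10 lies inside the marked block and had no peak in any of the 14 libraries, and neither had the 5 genes after UGT2B7. Single control libraries had 3 or 4 of the genes marked. The genes marked in all libraries of a control group were UGT2B17, UGT2B15 and UGT2B7 in both groups. These 3 of 10 compare with 9.86% of all coding genes in DMSO and 13.9% in siNC. With A-196, 2 of the 10 were lost, where 1.78% of all coding genes were lost (18% of those marked in every DMSO library). With siSUV420H1 none of the 10 was lost, where 2.98% of all coding genes were (21.5% of those marked in every siNC library). Marked in every library of both groups were 0 of the 10 in the A-196 arm, against 4.45% of all coding genes, and 2 (UGT2B17 and UGT2B15) in the siRNA arm, against 8.88%. The 3 genes marked in every control had less covered length in every treated library than in every control library in both arms, as had 5.51% of all coding genes with A-196 and 6.74% with siSUV420H1. Among the genes marked in every control library, those shares were 55.5% and 48.2%. No UGT2 gene was gained or higher, where the shares over all genes were 0.81% gained and 1.09% higher with A-196, and 0.342% gained and 2.08% higher with siSUV420H1. Over the 10 genes and over all genes the median difference of covered length was 0 kb in both arms. Since these contrasts were used to select the genes, nothing is read from the counts.

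UGT2B17 (chromosome 4, 68537173 to 68576322), the main enzyme that inactivates testosterone and dihydrotestosterone by glucuronidation, had 0 kb in each A-196 library, against 30.3, 26 and 31.3 kb in the DMSO libraries. With siSUV420H1 it had 9, 8, 7 and 9 kb, against 13, 20, 22 and 20 kb with siNC. A-196 thus left no peak on the gene, while each siSUV420H1 library kept a short one. The groups of each arm did not overlap, and the differences were -29.2 kb with A-196 and -10.5 kb with siSUV420H1. The share of the span with its flanks under peaks was 43.5% in siNC cells and 67.7% in DMSO cells. In the siSUV420H1 libraries the 6 kb from 68549001 to 68555000 were covered in each of the 4. With peaks of at least 10 kb alone, UGT2B17 was lost in the siRNA arm too, with a difference of -17 kb.

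UGT2B15 (chromosome 4, 68646597 to 68670652), a close relative of UGT2B17 that also acts on androgens, was the most completely marked gene of the cluster. It had 12.7, 0 and 21.1 kb with A-196, against 28.1 kb in each DMSO library, which is its whole span with flanks. With siSUV420H1 it had 18.7 kb in 3 libraries and 17 kb in replicate 4, against 25.1, 28.1, 28.1 and 25.1 kb with siNC. It was the one member still marked in A-196 cells, in 2 of 3 libraries, and it kept 65% of its span under peaks with siSUV420H1. The means were 11.2 kb ± 10.6 and 28.1 kb ± 0 (SD, n = 3 each), a difference of -16.8 kb, and 18.2 kb ± 0.826 and 26.6 kb ± 1.73 (SD, n = 4 each), a difference of -8.32 kb. The A-196 mean rests on libraries that range from no peak to 21.1 kb, and without A-196 replicate 2 the difference was -11.2 kb. With peaks of at least 10 kb alone, UGT2B15 was lost with A-196, and the differences were -28.1 kb in that arm and -19.1 kb in the siRNA arm.

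The promoter of UGT2B15 was the only one of the cluster's promoters in the RefSeq table with a peak on it. The table (GRCh38.p14) held 7 of the 10 genes, namely UGT2B15, UGT2B10, UGT2A3, UGT2B7, UGT2B11, UGT2A1 and UGT2A2. The 250 bases before the start of UGT2B15 lay wholly under a peak in 2 of 3 A-196 libraries and 3 of 3 DMSO libraries, and in 4 of 4 siSUV420H1 and 4 of 4 siNC libraries. The other 6 promoters had no peak in any library. The UGT2B promoters are shown to compare the marked copy with its unmarked relatives. Each is 250 bases long, 5′ to 3′ on the strand of the gene and ends just before the start, and the capitals mark the longest run of bases common to the 4 of them. UGT2B15 lies at chr4:68670653-68670902 (minus strand), UGT2B10 at chr4:68815744-68815993 (plus strand), UGT2B7 at chr4:69096224-69096473 (plus strand) and UGT2B11 at chr4:69214749-69214998 (minus strand).
UGT2B15: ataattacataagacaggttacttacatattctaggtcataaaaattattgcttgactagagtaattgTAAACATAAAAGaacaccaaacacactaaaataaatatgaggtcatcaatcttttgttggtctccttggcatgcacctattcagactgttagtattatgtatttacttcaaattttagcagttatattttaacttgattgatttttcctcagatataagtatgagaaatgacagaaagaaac
UGT2B10: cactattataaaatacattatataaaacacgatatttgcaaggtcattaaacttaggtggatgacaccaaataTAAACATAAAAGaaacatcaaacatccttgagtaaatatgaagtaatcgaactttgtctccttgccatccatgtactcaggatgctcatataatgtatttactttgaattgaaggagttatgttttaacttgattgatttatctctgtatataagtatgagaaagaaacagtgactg
UGT2B7: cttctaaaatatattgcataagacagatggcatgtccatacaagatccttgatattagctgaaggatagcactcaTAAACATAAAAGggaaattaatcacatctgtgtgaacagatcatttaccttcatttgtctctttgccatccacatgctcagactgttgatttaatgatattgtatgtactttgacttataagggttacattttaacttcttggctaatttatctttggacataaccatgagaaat
UGT2B11: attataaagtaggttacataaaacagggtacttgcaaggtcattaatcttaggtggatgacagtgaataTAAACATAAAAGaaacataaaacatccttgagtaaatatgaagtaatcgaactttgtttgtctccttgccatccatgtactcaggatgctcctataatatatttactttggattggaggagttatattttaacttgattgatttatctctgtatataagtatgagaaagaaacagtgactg

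The run of 12 bases starts at base 69 of the UGT2B15 window, 74 of UGT2B10, 76 of UGT2B7 and 70 of UGT2B11, counted from 1 at the 5′ end. On either strand it occurs in 6 of 35116 promoter windows of the same length, 0.0171%, and the 6 include the 4 it was taken from. The run was picked because these related promoters share it, so its rarity is no independent result. UGT2B10 and UGT2B11 share 91.6% of their 250 bases in a global alignment, UGT2B15 and UGT2B11 74.8%, UGT2B15 and UGT2B10 74%, and UGT2B15 and UGT2B7 67.2%. For scale, the UGT2A promoters aligned with that of UGT2B15 at 58% to 60.4%. Among 3 short motifs searched on both strands, GTTAAT, one arm of the site of the liver factor HNF1, occurred in UGT2A1 alone of the 7 windows and in 6.23% of all windows. TATAAA, the sequence of the TATA box, occurred in UGT2B10, UGT2B11, UGT2A1 and UGT2A2 and in 10.7% of all windows. CCAAT, the sequence of the CAAT box, occurred in UGT2B11 and in 32% of all windows. Matches were counted anywhere in the window, so they do not show which promoters have or lack a working TATA box or CAAT box.

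UGT2B7 (chromosome 4, 69051375 to 69112987), which glucuronidates morphine, many other drugs and oestrogens, had 0 kb in each A-196 library, against 13.6, 28 and 13.6 kb with DMSO. With siSUV420H1 it had 0 kb in 3 libraries and 5 kb in replicate 2, against 24.6, 24.6, 23.6 and 26 kb with siNC. Its differences were -18.4 kb with A-196 and -23.5 kb with siSUV420H1, and no other of the 10 genes had as large a difference in the siRNA arm. Without siSUV420H1 replicate 2, or with peaks of at least 10 kb alone, it was lost in that arm also. All of its covered bases lay before the promoter printed above, in the upstream part of the RefSeq span, which overlaps the lncRNA LOC105377265. One piece, from 69052001 to 69062000, was under peaks in each of the 7 controls and in no treated library. Another, from 69080001 to 69091000, was under peaks in each of the 4 siNC libraries and in part in DMSO replicate 2 and siSUV420H1 replicate 2.

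UGT2A3 (chromosome 4, 68928463 to 68951804), a bile acid-conjugating member of the UGT2A branch, had only the edge of a domain. It had 0 kb in each A-196 library, against 0, 4.54 and 1.54 kb with DMSO. It had 0 kb in each siSUV420H1 library, against 0, 2.54, 2.54 and 2.54 kb with siNC. It was not called lost, since DMSO replicate 1 and siNC replicate 1 had no peak within 2 kb of it. Without DMSO replicate 1, and without siNC replicate 1, it was lost in that arm.

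**Figure D3:**
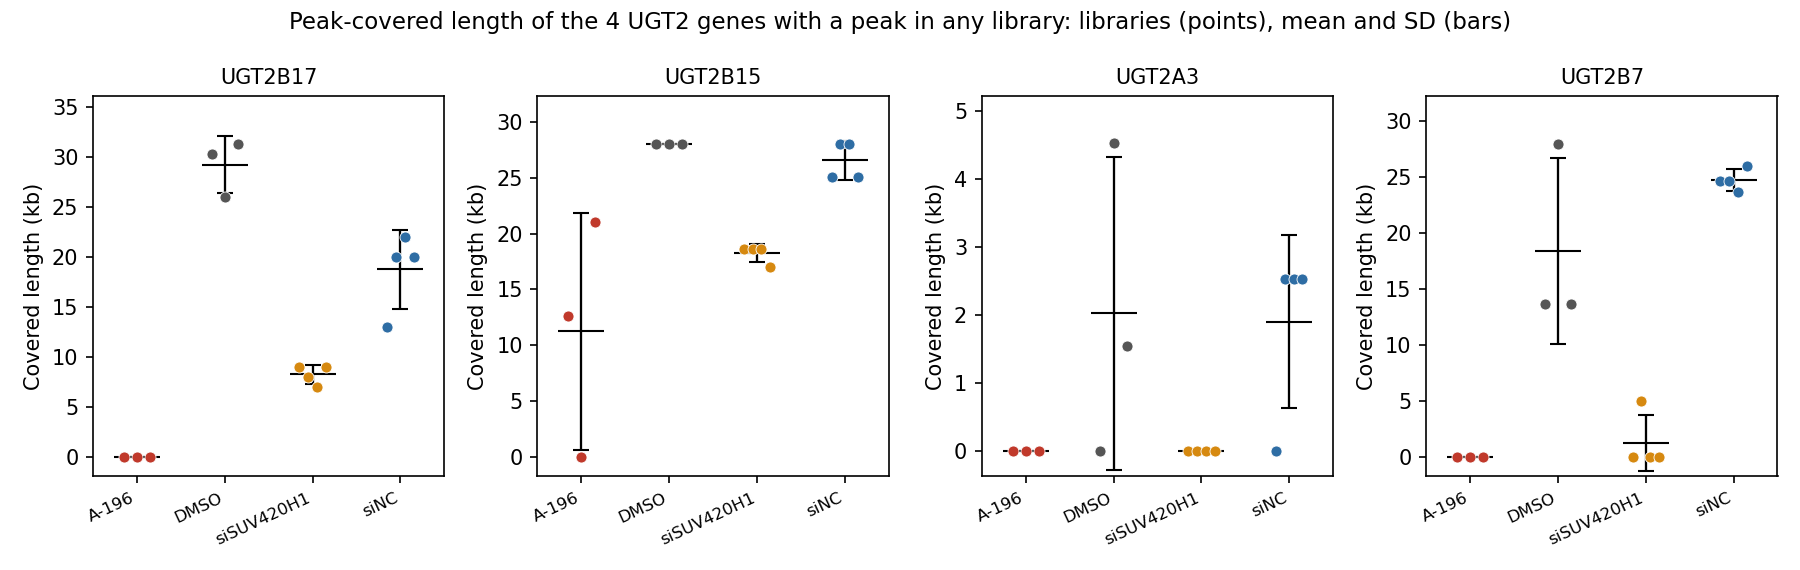
Length under peaks in kb of UGT2B17, UGT2B15, UGT2A3 and UGT2B7, each with 2 kb on both sides, 1 point per library with the group mean and SD as bars; the other 6 genes were at 0 kb in all libraries. UGT2B17 is at 0 kb in A-196 cells and at 7 to 9 kb in siSUV420H1 cells, whereas UGT2B15 keeps 17 to 18.7 kb in siSUV420H1 cells.

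UGT2B10 (chromosome 4, 68815994 to 68832023), an enzyme for the N-glucuronidation of nicotine and other amines, was listed at 0 kb in each of the 14 libraries. In siNC cells the space between UGT2B10 and UGT2A3 was 43.1% covered and the space between UGT2B15 and UGT2B10 27.2% covered. The gene, 281 to 297 kb from the left end of the stretch, lay within a wider run without peaks. That run went from 275 to 306 kb in siNC replicate 4 and from 217 to 332 kb in DMSO replicate 1. In siSUV420H1 replicate 1 it went from 219 to 498 kb. UGT2B11, UGT2B28, UGT2B4, UGT2A1 and UGT2A2 were likewise at 0 kb throughout. UGT2B4 is a bile acid-conjugating enzyme of liver, UGT2B28 acts on steroids, and UGT2A1 and UGT2A2 share most of one gene body, so their values are not independent. Set per length, as the covered share of the span with flanks, UGT2B15 came first in each group, with 40% in A-196 cells and 100% in DMSO cells, and 65% in siSUV420H1 cells and 94.7% in siNC cells. UGT2B17 followed with 0% and 67.7%, and 19.1% and 43.5%, in the same order of groups. UGT2B7 had 0% and 28.1%, and 1.91% and 37.7%, and UGT2A3 0% and 7.41%, and 0% and 6.96%. Neighbours in that order did not overlap between DMSO libraries, while UGT2B17 and UGT2B7 overlapped between siNC libraries.

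Most covered length of the cluster lay outside the gene bodies. The spaces between the genes make up 71.9% of the stretch and held 73.6% of the covered length with A-196 and 64% with DMSO, and 55.9% with siSUV420H1 and 68% with siNC. In DMSO cells 22.2% of the gene-body length and 15.5% of the space between genes was covered. The marked intergenic pieces hold several pseudogenes. UGT2B26P, a UGT2B pseudogene next to UGT2B7, had 4.67 kb with A-196 and 13.4 kb with DMSO, and 9.75 kb with siSUV420H1 and 13.5 kb with siNC (means). The pseudogenes UGT2B27P, UGT2B25P and UGT2B24P had no peak in any library.

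Merging the peaks of all libraries gave 20 separate domains in the stretch. Of these, 1 was present in every A-196 library and 7 in every DMSO library, and 4 in every siSUV420H1 library and 9 in every siNC library. With A-196, 4 of the 7 were lost, and with siSUV420H1 5 of the 9, and no domain was gained in either arm. The share of domains lost over the genome is not given here, and the stretch was selected on these peak lists. Nothing is therefore read from the domain counts. The domain present in all 14 libraries spans UGT2B15 and the space beyond it (68626001 to 68713000). It held 23.3 kb with A-196 and 80 kb with DMSO, and 29.5 kb with siSUV420H1 and 63.5 kb with siNC (means). Inside it, the 10 kb from 68698001 to 68708000 were under peaks in each of the 14 libraries, and this was the only piece of the cluster with that property. No annotated gene or pseudogene lies in those 10 kb, which fall between UGT2B15 and UGT2B10.

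Other domains differed between the arms. A domain in the space between UGT2B15 and UGT2B10 (68742001 to 68754000) was absent from the A-196 libraries and present in each DMSO library, with 9.67 kb on average. It was present in each siSUV420H1 library, with 10 kb on average, and in 3 of 4 siNC libraries, with 6.5 kb on average. The domain over UGT2B17 (68546001 to 68588000) was absent from each A-196 library and present in each siSUV420H1 library. The difference between the arms was not tested. Domains at 68779001 to 68788000, 68841001 to 68850000 and 68854001 to 68864000 were found in each siNC library and in no DMSO library, and one at 68866001 to 68874000 in each DMSO library and in no siNC library.

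As a measure of how alike the peak patterns in the stretch were, the shared length was divided by the combined length of each pair of libraries (Jaccard index). It averaged 0.886 between siSUV420H1 libraries, 0.742 between siNC libraries, 0.695 between DMSO libraries and 0.299 between A-196 libraries. Between A-196 and siSUV420H1 libraries it averaged 0.368 (12 pairs, 0.222 to 0.522), and between A-196 and DMSO libraries 0.147 (9 pairs, 0.0788 to 0.229). The index was thus higher on average between the treated groups than between A-196 and DMSO, which was not tested. Pairs share libraries, and the index depends on how much each library covers.

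The sequence before the cluster carried more of the mark than the sequence after it. The 1 Mb before the stretch had 28 kb ± 4.58 with A-196 and 124 kb ± 11.5 with DMSO (SD, n = 3 each), and 83.8 kb ± 10.4 with siSUV420H1 and 164 kb ± 8.06 with siNC (SD, n = 4 each). The 1 Mb after it had 0 kb with A-196 and 18.3 kb ± 0.577 with DMSO, and 9.25 kb ± 3.95 with siSUV420H1 and 33.5 kb ± 3.11 with siNC. Of the 29 other coding genes within 1 Mb, 21 had no peak in any library, among them the sulfotransferases SULT1B1 and SULT1E1, the caseins CSN1S1, CSN2 and CSN3, and the salivary genes STATH, HTN1, HTN3 and MUC7. With A-196, 1 of the 29 was lost (1.78% over all coding genes) and 3 were lower without overlap (5.51%). None was gained or higher in that arm (0.81% and 1.09%). With siSUV420H1, 1 was lost (2.98%) and 3 were lower without overlap (6.74%), and 1 was gained (0.342%) and 2 were higher without overlap (2.08%). Next to UGT2B17, the serine protease gene TMPRSS11E had 5, 0 and 6 kb with A-196, against 21.1, 13.6 and 14.6 kb with DMSO. It had 17.5, 12, 12 and 17 kb with siSUV420H1, against 20.5, 19.5, 22.5 and 18.5 kb with siNC, so it was lower without overlap in both arms, by less in the siRNA arm. On the far side, the enamel protein gene AMTN was at 0 kb with A-196 and 13.3 kb ± 1.22 with DMSO, and at 0, 5, 0 and 0 kb with siSUV420H1 and 13.8 kb ± 1.22 with siNC. In the other direction, UBA6, which encodes a ubiquitin-activating enzyme and lies before the cluster, had 6, 6, 6 and 5 kb with siSUV420H1, against 0 kb in each siNC library. It was at 0 kb in each A-196 and each DMSO library.

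**Figure D4:**
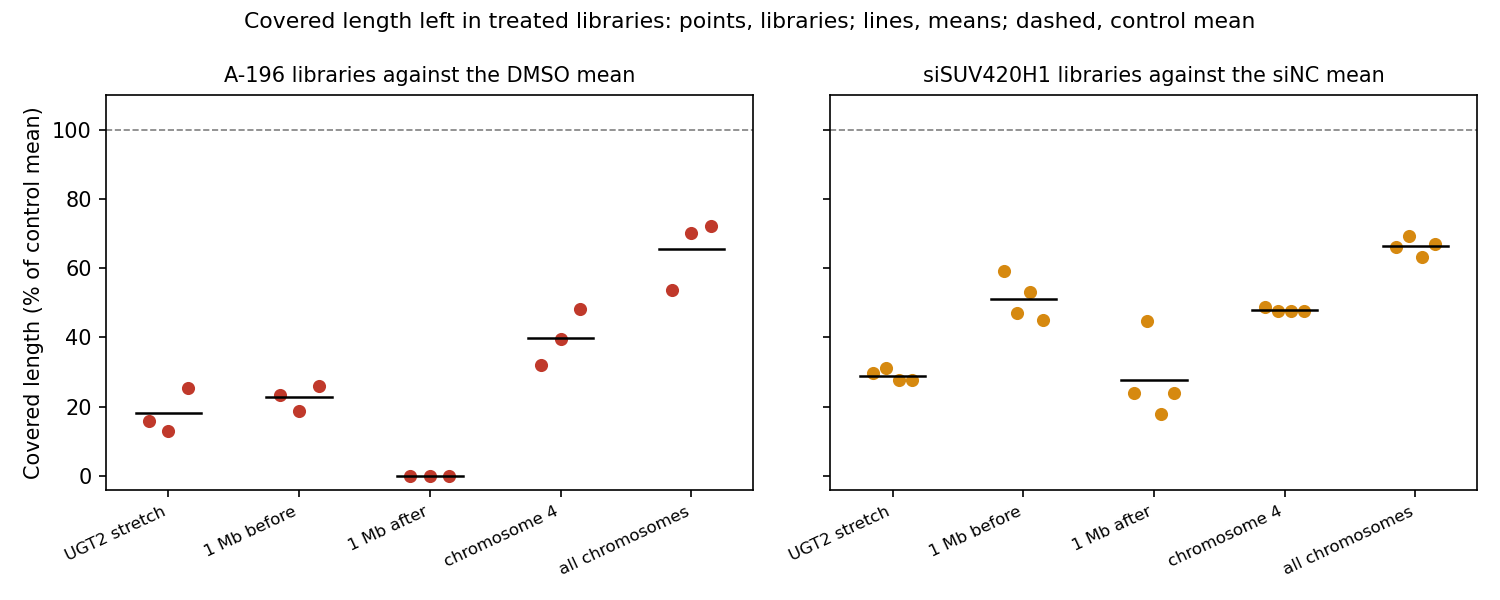
Covered length in treated libraries as a percentage of the mean of their controls, for the UGT2 stretch, the 1 Mb before and after it, chromosome 4 and all chromosomes, with A-196 against DMSO on the left and siSUV420H1 against siNC on the right. Points are libraries, lines are means and the dashed line is the control mean; the stretch lies below chromosome 4 and the genome in each of the 7 treated libraries, while the 1 Mb after it has a lower mean than the stretch, with 0% and 27.6% left.

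The covered length left in the stretch, 18% with A-196 and 28.9% with siSUV420H1, compares with 39.9% and 47.9% for chromosome 4 and 65.4% and 66.3% for the genome. The 1 Mb before the stretch kept more than it, 22.6% with A-196 and 51% with siSUV420H1. The 1 Mb after it kept less on average, 0% and 27.6%. With siSUV420H1, single libraries kept 17.9% to 44.8% after the stretch and 27.6% to 31% in it, so these ranges overlapped. These differences were not tested, since the stretch was selected on them. The stretch held 0.0363% of all covered bases with A-196 and 0.131% with DMSO, and 0.0472% with siSUV420H1 and 0.108% with siNC. Among 3019 windows of 1 Mb, the mean coverage was 3.18% with A-196 and 4.88% with DMSO, and 4.09% with siSUV420H1 and 6.19% with siNC. The stretch had 3.12% and 17.4%, and 5.25% and 18.1%, in the same order of groups. It was more covered than 72.4% of windows in A-196 cells and 92.4% in DMSO cells, and than 79% in siSUV420H1 cells and 92.5% in siNC cells. Less was left than in the stretch in 9.12% of the 1810 windows covered in every DMSO library, and in 22.6% of the 2329 windows covered in every siNC library. The covered length was lower without overlap in 33.1% of all windows with A-196 and in 55.5% with siSUV420H1.

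Outside chromosome 4, the genes with at least 20 kb under peaks in a library whose profile was most like that of the stretch were TFEC, CCDC192, TMC1, MAST4 and TENM2. Likeness was the mean absolute difference over the 14 libraries after each profile was divided by its highest library, and it was 0.043 for TFEC and 0.0842 for TENM2, among 1153 genes. TFEC (chromosome 7, 115935152 to 116159896) had 14.7 kb ± 8.08 with A-196 and 75.9 kb ± 4.58 with DMSO (SD, n = 3 each), and 20 kb ± 3.37 with siSUV420H1 and 81 kb ± 2.58 with siNC (SD, n = 4 each).

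Of 12 other UDP-glycosyltransferases, including the UGT1A genes that conjugate bilirubin and phenols, 6 had a peak in any library. None was marked in every DMSO or every siNC library, and none was lost, gained, or lower or higher without overlap in either arm. On average 3.33 of them were marked per A-196 library and 0.667 per DMSO library, and 0 per siSUV420H1 library and 1.5 per siNC library. UGT1A6 to UGT1A10 share most of one gene body, so a single peak marks several of them. Of 5 genes that supply UDP-glucuronate or cleave glucuronides, 1 (UGDH, which makes UDP-glucuronate) had a peak in any library. Among 28 genes of steroid hormone synthesis and inactivation, 4 were marked in every DMSO library and 5 in every siNC library. With A-196, 1 was lost and 3 were lower without overlap, and with siSUV420H1 2 were lost and 4 lower without overlap, the lost genes counting among the lower ones. Over all coding genes the shares lost were 1.78% with A-196 and 2.98% with siSUV420H1, and the shares lower without overlap 5.51% and 6.74%. AKR1D1, the 5-beta-reductase of bile acid synthesis, was at 0 kb with A-196 and 5.21 kb ± 0.577 with DMSO, and at 0 kb with siSUV420H1 and 1.77 kb ± 2.04 with siNC. AKR1C3, which makes testosterone from androstenedione, had 5.67 kb ± 9.81 with A-196 and 21 kb ± 7.55 with DMSO, and these groups overlapped. It was at 0 kb with siSUV420H1 and 10.2 kb ± 0.5 with siNC. HSD17B13, a lipid droplet dehydrogenase, was at 0 kb with A-196, DMSO and siSUV420H1, and at 7.25 kb ± 0.957 with siNC. HSD17B2, which oxidises testosterone and oestradiol, had 26 kb ± 5 with A-196 and 33.8 kb ± 2.79 with DMSO, and 16.8 kb ± 2.36 with siSUV420H1 and 29.2 kb ± 2.08 with siNC. SRD5A2, the steroid 5-alpha-reductase of the prostate, was the one gene of this list that was higher without overlap in an arm. It had 12.7 kb ± 2.52 with A-196 and 3.67 kb ± 3.21 with DMSO, and 1.09% of all coding genes were higher in that arm. It had 11.8 kb ± 3.60 with siSUV420H1 and 21.2 kb ± 4.11 with siNC, and the siRNA groups overlapped.

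Of 46 other drug-metabolising enzymes, 7 were marked in every DMSO library and 5 in every siNC library. With A-196, 2 were lost (1.78% over all coding genes) and 5 lower without overlap (5.51%). With siSUV420H1, 4 were lost (2.98%) and 5 lower without overlap (6.74%). CYP1B1, which hydroxylates oestradiol, had 8.15 kb ± 4 with A-196 and 12.6 kb in each DMSO library, and 1.25 kb ± 2.5 with siSUV420H1 and 0 kb with siNC. GSTM5, a glutathione transferase, was at 0 kb with A-196 and 4.27 kb ± 1 with DMSO, and at 0 kb with siSUV420H1 and 4.27 kb in each siNC library. ADH5, the formaldehyde-clearing alcohol dehydrogenase, was at 0 kb with A-196 and 1.12 kb ± 0.577 with DMSO, and at 0 kb with siSUV420H1 and 1.54 kb ± 0.5 with siNC. GSTM1 and GSTM2 were lost in the siRNA arm alone. They were at 0 kb with A-196, DMSO and siSUV420H1, and at 2.93 kb ± 0.5 and 4.75 kb ± 0.5 with siNC. Among 16 regulators of UGT2 genes, 2 were marked in every control library of each arm and kept in every treated library. Over all coding genes, 4.45% were marked in every library of the A-196 arm and 8.88% in every library of the siRNA arm. Of the 16, 2 were lower without overlap with A-196 (5.51% over all coding genes) and 1 with siSUV420H1 (6.74%). ESR1, the oestrogen receptor, had 19.1 kb ± 12.1 with A-196 and 62.2 kb ± 1.02 with DMSO, and 50.8 kb ± 5.32 with siSUV420H1 and 79.1 kb ± 3.30 with siNC. AHR, the dioxin receptor, had 7.81 kb ± 8.33 with A-196 and 26.8 kb ± 5.51 with DMSO, and 4.90 kb ± 0.5 with siSUV420H1 and 6.32 kb ± 1.36 with siNC, and the siRNA groups overlapped. Of 10 hepatocyte genes, 4 had a peak in any library. None of these was lost or lower without overlap with A-196 (1.78% and 5.51% over all coding genes), and 1 was lost and 2 were lower without overlap with siSUV420H1 (2.98% and 6.74%). Of the 10 squamous genes, none was lost and 1 was lower without overlap with A-196, and 1 was lost and 3 were lower without overlap with siSUV420H1, beside the same shares. The medians over each of these lists and over all genes were 0 kb in each group.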

How the data were processed

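CUT&RUN libraries for H4K20me3 (14 of the 24 samples listed) were grouped by their titles; the other 10, IgG, H3K4me3 and H3K27me3 libraries, were not used here. The build was hg38, and the tools named, with no role, were bedtools 2.30.0, Picard 2.27.3, Bowtie and cutadapt 4.4, per the submitters' processing notes. According to the names of the deposited lists, duplicates were removed and broad peaks were called per library against 1 IgG library in each arm; the peak caller is not given in the sources used here. The deposited lists give starts and ends in base pairs on a 1000 bp grid, with a narrowest peak of 5 kb and a smallest gap of 2 kb. Depth is unknown, so no interval that needs it is given.

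Peaks were merged per library and covered lengths computed with Python 3.11.15, numpy 2.4.6 and pandas 2.3.3, after a check on simulated intervals. For gene spans a RefSeq table (GRCh38.p14, no exons) was used, and genes on scaffolds were left out, so exons and introns were not assigned. Promoters were aligned with Biopython 1.88. The members, the gene lists and the settings were chosen with earlier results of these data known, so no test was made. Named genes were the 10 members, coding genes within 1 Mb, up to 5 list members per list that were lost, gained or not overlapping, and the 5 genes elsewhere with the most similar profile. Other genes, pseudogenes and domains were named after their values were seen.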

Additional observations from a re-analysis of the deposited data

Results flagged for a closer look

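In 4 of 17 groups of 4 libraries examined, 1 library lay apart from the other 3. In each of the 4 the other 3 values were tied, so any difference sets a library apart and the usual chance rate of about 1 in 20 groups does not apply. UGT2B15 had 17 kb in siSUV420H1 replicate 4, against 18.7 kb in each of the others. UGT2A3 had 0 kb in siNC replicate 1, against 2.54 kb in each of the others. UGT2B7 had 5 kb in siSUV420H1 replicate 2, against 0 kb in the others, and the same 5 kb peak gave this library 7 peaks in the stretch, against 6 in each of the others.

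YTHDC1, which encodes a reader of methylated RNA and lies before TMPRSS11E, went opposite ways in the 2 arms, and the difference between the arms was not tested. It had 0, 0 and 2.09 kb with A-196, against 6.09, 6.09 and 4.09 kb with DMSO, a difference of -4.73 kb. It had 6.09, 6.09, 6.09 and 4.09 kb with siSUV420H1, against 1.09, 2.09, 0.09 and 0.09 kb with siNC, a difference of 4.75 kb.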

How the results depend on the processing

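The covered length of the stretch was lower in treated cells under each setting tried. After scaling each library to its arm's mean covered length, the difference was -116 kb for A-196 and -95.3 kb for siSUV420H1. With peaks of at least 10 kb alone it was -104 kb for siSUV420H1, 2 genes (UGT2B17 and UGT2B7) were lost in that arm instead of 0, and siNC minus DMSO was -26.6 kb instead of 8.67 kb. The causes of these shifts were not tested. Leaving out single libraries gave -166 to -153 kb for A-196, -148 to -141 kb for siSUV420H1 and 2.5 to 15 kb for siNC minus DMSO; genes lost numbered 2 to 3 with A-196 and 0 to 1 with siSUV420H1, and genes lower without overlap 3 to 4 in each arm. With peaks within 5 kb merged, UGT2B15 no longer separated in the A-196 arm, which left 2 genes there. Of 80 settings for single genes, 73 stayed within 1 SD and 7 moved further, none with a change of sign. With the replicate block, same-numbered libraries differed by -159 kb ± 23.1 (A-196 arm) and -144 kb ± 9.43 (siRNA arm). Over 1 Mb windows no library deviated most like its own number. With 3 or 4 libraries in a group, that check cannot decide whether the numbers pair the libraries.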
